A study of Mus musculus with 2 samples.

Results

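The actin filaments of a cell are lined by tropomyosins and joined, anchored and moved by a small set of other proteins, most of which come in muscle and non-muscle forms made from 1 gene by choice of exons. Here the transcripts of 10 such genes were read out of the colon of adult C57BL/6J mice: the 4 tropomyosin genes (Tpm1, Tpm2, Tpm3 and Tpm4), caldesmon (Cald1), the alpha-actinins Actn1 and Actn4, vinculin (Vcl), a myosin light chain (Myl6) and filamin A (Flna). They were taken as named genes, with every transcript the quantification tables list for them, 89 of 103639 transcripts and 10 of 43346 Ensembl genes. The tissue was whole colon from animals aged 8 weeks, in 2 libraries of 1 group of polyadenylated RNA with no treated or mutant counterpart. Per the labels the source was a pool of both sexes, and both libraries carry 1 donor record, so the spread between them may not measure variation between animals. The libraries also differed in markers of other tissues, with pancreatic acinar markers at 26.7 TPM in sum in replicate 1 and 28501 TPM in replicate 2. What the spread reflects was not tested.

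Tropomyosins are coiled coils that lie along actin and set which myosins and other proteins can bind it. High molecular weight forms start at the outer promoter of a gene, low molecular weight forms at an inner one, and paired internal exons and alternative last exons then change the face of the protein. Caldesmon holds actin and myosin in check in smooth muscle, alpha-actinin and filamin cross-link filaments, vinculin ties them to adhesions, and Myl6 is the essential light chain of smooth muscle and non-muscle myosin. A colon wall holds smooth muscle layers as well as epithelium and connective tissue, so both kinds of isoform can be present in 1 RNA sample. In such a bulk sample, fewer cells of a type and less RNA per cell cannot be told apart.

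The exon pairs that the results turn on are shown first, on the coding strand from 5′ to 3′, with the bases that differ within a pair in capitals. In Tpm1 the upstream exon 2a (chr9:67048124-67048249, minus strand, mm10) is the smooth muscle exon and exon 2b (chr9:67047786-67047911) serves other cells. The pair share 47.6% of their 126 bases. Further along, exon 6a (chr9:67032466-67032541) and exon 6b (chr9:67031951-67032026), of 76 bases each, share 56.6%.
Tpm1 exon 2a: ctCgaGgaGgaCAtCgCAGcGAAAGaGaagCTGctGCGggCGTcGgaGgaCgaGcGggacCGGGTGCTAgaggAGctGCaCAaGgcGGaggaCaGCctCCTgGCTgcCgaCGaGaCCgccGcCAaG
Tpm1 exon 2b: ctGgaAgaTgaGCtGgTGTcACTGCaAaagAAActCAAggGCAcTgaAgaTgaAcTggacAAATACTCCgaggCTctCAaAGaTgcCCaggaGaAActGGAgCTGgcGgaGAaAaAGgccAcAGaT
Tpm1 exon 6a: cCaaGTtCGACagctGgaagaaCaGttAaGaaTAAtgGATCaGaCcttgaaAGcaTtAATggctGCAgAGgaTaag
Tpm1 exon 6b: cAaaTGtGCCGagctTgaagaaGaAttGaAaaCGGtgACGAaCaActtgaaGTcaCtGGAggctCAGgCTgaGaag

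In Tpm2 the skeletal muscle form is known to take the downstream exon 6 and the proximal last exon, and the smooth muscle and fibroblast form the upstream exon 6 and the distal last exon. The upstream exon 6 lies at chr4:43519003-43519078 and the downstream one at chr4:43518644-43518719, both on the minus strand of mm10, with 53.9% identity over 76 bases. The coding parts of the last exons, chr4:43514782-43514861 (distal) and chr4:43515924-43516003 (proximal), have 80 bases each and 41.2% identity.
Tpm2 upstream exon 6: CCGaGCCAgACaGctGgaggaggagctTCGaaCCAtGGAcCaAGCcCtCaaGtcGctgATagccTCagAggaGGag
Tpm2 downstream exon 6: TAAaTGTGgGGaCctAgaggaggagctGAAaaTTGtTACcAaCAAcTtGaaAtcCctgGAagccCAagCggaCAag
Tpm2 distal last exon, coding part: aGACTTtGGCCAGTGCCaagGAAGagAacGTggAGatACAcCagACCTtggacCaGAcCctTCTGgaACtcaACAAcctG
Tpm2 proximal last exon, coding part: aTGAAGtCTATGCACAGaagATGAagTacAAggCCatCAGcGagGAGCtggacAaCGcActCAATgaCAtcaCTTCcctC

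In Actn1 the pair encodes part of the calcium-binding region, and the smooth muscle form is known to have lost the calcium sensitivity of the non-muscle form. The smooth muscle exon has 66 bases (chr12:80170183-80170248) and the non-muscle exon 81 (chr12:80170686-80170766), both on the minus strand, with 53.1% identity over a gapped alignment. Capitals here also cover bases opposite a gap.
Actn1 exon of the smooth muscle form: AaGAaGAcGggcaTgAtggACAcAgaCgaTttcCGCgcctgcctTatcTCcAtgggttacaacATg
Actn1 exon of the non-muscle form: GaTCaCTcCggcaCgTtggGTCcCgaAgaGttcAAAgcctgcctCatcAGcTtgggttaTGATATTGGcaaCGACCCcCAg

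Cassette exons of Cald1 (chr6:34747892-34747969, plus strand, 78 bases) and Flna (chrX:74232967-74232990, minus strand, 24 bases) are shown in capitals between 15 bases of each neighbouring exon. The opening 120 of the 624 bases that only the long, smooth muscle form of caldesmon holds (chr6:34746016-34746135 of chr6:34746016-34746639) are given in lower case throughout.
Cald1 cassette exon: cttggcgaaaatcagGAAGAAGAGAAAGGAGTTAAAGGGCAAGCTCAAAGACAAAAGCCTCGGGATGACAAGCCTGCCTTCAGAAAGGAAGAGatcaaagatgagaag
Flna cassette exon: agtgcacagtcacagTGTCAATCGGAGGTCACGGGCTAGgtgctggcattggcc
Cald1 stretch of the long form, first 120 bases: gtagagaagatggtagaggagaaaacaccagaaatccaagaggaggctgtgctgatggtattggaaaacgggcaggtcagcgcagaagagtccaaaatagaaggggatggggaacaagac

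Expression was read as the authors' TPM (transcript abundance relative to all transcripts), which is scaled for transcript length, so levels can be compared between genes. The light chain Myl6 (ENSMUSG00000090841.1, chr10:128490860-128494145) stood highest, with 941 TPM in replicate 1 and 1157 TPM in replicate 2 (mean 1049 ± 153, SD, n = 2). Flna (ENSMUSG00000031328.11, chrX:74223461-74249820) had 888 and 939 TPM, a mean that lay less than the SD of Myl6 below it, although the highest Flna library did not reach the lowest Myl6 one. Actn4 (ENSMUSG00000054808.9, chr7:28893248-28962340), the non-muscle alpha-actinin also made by epithelia, had 557 and 562 TPM, and Tpm1 (ENSMUSG00000032366.11, chr9:67022590-67049406) had 393 and 409 TPM. In gene TPM these 4 genes and Tpm2 did not overlap one another over the 2 libraries. Over protein-coding models alone the order was another: Tpm1 had 383 and 398 TPM, above Flna with 222 and 334 TPM and Actn4 with 205 and 214 TPM, and Actn4 met Tpm2 (167 and 205 TPM). The Flna sum still holds short coding models, Flna-214 of 832 bases (41.5 and 77.3 TPM) and Flna-205 of 841 bases (0 and 20.9 TPM). The full-length Flna-203 alone had 179.8 and 235 TPM, which overlapped both Actn4 and Tpm2.

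Tpm2 (ENSMUSG00000028464.12, chr4:43514711-43523765) had 181 TPM in replicate 1 and 215 TPM in replicate 2. Below it, Actn1 (ENSMUSG00000015143.10, chr12:80167547-80260371) with 77.4 and 99.3 TPM and Tpm3 (ENSMUSG00000027940.14, chr3:90072649-90100902) with 92.8 and 80.0 TPM overlapped and could not be put in order. Tpm4 (ENSMUSG00000031799.9, chr8:72134975-72153142) had 47.1 and 56.7 TPM, and Vcl (ENSMUSG00000021823.9, chr14:20929398-21033676) had 41.8 and 45.9 TPM. Cald1 (ENSMUSG00000029761.12, chr6:34598500-34775473) was the lowest of the 10, with 18.4 and 19.8 TPM. That placed it at percentile 58.9 of all genes averaging 1 TPM or more, against percentile 99.2 for Myl6.

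**Figure D1:**
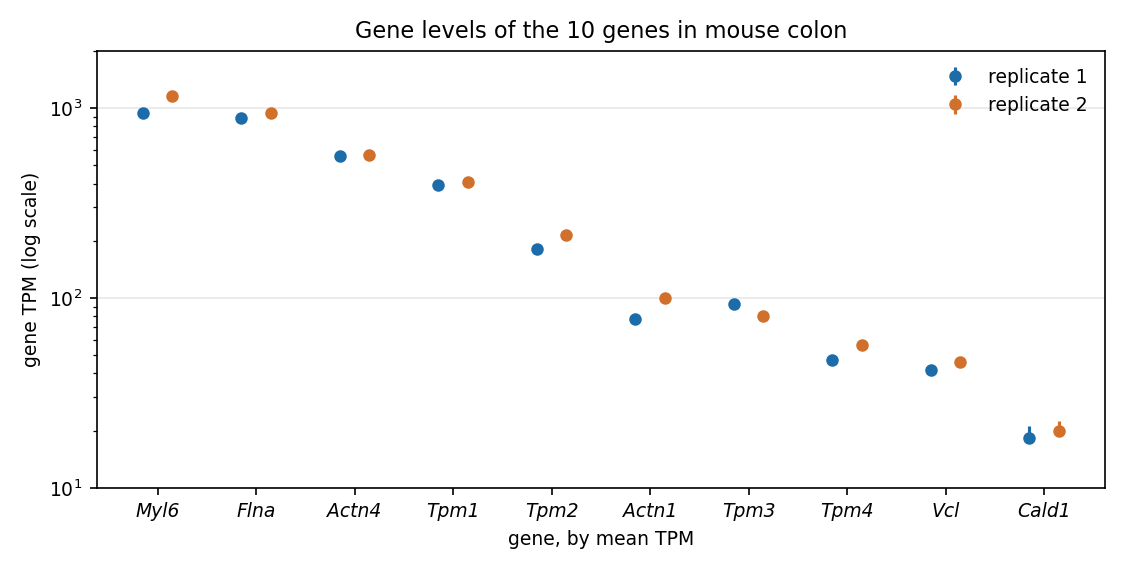
Gene TPM on a log axis for the 10 genes, ordered by mean, with replicate 1 left of replicate 2 and bars for the authors' credibility intervals, most of which are shorter than the points. The levels run between 18.4 TPM for Cald1 in replicate 1 and 1157 TPM for Myl6 in replicate 2. Replicate 2 is the higher library for 9 of the 10 genes, a direction that was not counted over all genes.

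None of the 10 genes was past a 2-fold difference between the libraries, where 3.75% of 13796 genes were. The log2 ratios of TPM + 0.5, replicate 1 over replicate 2, lay between -0.36 for Actn1 and 0.21 for Tpm3, with a median of -0.12 against 0.03 over all genes tested. Replicate 2 was the higher one for 9 of the 10, and the share of all genes in that direction was not counted. With 2 libraries of 1 group there was no replicate check on any such difference and no test was run.

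The libraries held 46689262 and 45966841 expected counts, of which the 10 genes took 0.492% and 0.544%. The 6 smooth muscle markers fixed for the check of the tissue, among them the contractile genes Acta2 and Myh11, added up to 6870 and 6761 TPM, the 4 epithelial markers to 5009 and 5184 TPM, none of them past 2-fold. A further 3 lists separated the libraries, all higher in replicate 2: 6 of 6 pancreatic acinar markers past 2-fold (26.7 against 28501 TPM in sum), 5 of 5 red blood cell markers (525 against 2998) and 2 of 4 adipocyte markers (215 against 468). None of these markers was at 0 in either library. Skeletal muscle markers had 113 TPM in sum in replicate 1, against 63.6 TPM in replicate 2, with 2 of 6 at a mean of 1 TPM or more, Myh4 listed at 0 TPM in both, on 1 count in replicate 1 and 0 in replicate 2, and Tnnc2 at 0 in replicate 1. Acta1, skeletal alpha-actin, was past 2-fold in that list, with 32.0 against 7.99 TPM. Most of the sum was Ckm, with 79.9 against 53.6 TPM. Tnnt3, Mylpf and Tnnc2, all low, were higher in replicate 2. Fibroblast markers (301 and 374 TPM) and endothelial markers (29.7 and 34.5 TPM) had no gene past 2-fold. The part of these lists in the differences between libraries given below was not tested.

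Tpm1 gave more than 1 in 2 tropomyosin transcripts. Its share of the TPM of the 4 genes was 55.1% in replicate 1 and 53.7% in replicate 2, against 25.3% and 28.3% for Tpm2, 13.0% and 10.5% for Tpm3, and 6.60% and 7.46% for Tpm4. Coding models of at least 240 residues, 25 in all, were split at 270 residues into high and low molecular weight. High molecular weight forms made up 63.1% and 69.6% (mean 66.3 ± 4.59%, n = 2) and low molecular weight forms 36.9% and 30.4%. The high molecular weight pool came from Tpm1 (248 and 295 TPM) and Tpm2 (167 and 205 TPM), with 0.0600 and 0.340 TPM from Tpm3. The low molecular weight pool came from Tpm1 (134 and 103 TPM), Tpm3 (61.4 and 59.7 TPM) and Tpm4 (47.1 and 56.5 TPM). No low molecular weight model of Tpm2 and no high molecular weight coding model of Tpm4 is in the tables.

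Within Tpm1, most outer-promoter transcripts carried the smooth muscle exon 2a. Exon 2a was in 92.8% of the TPM of models with either exon 2 in replicate 1 and in 95.3% in replicate 2 (94.0 ± 1.78%, n = 2), which is 237 and 287 TPM against 18.6 and 14.3 TPM for exon 2b. The outer first exon opened 64.9% and 74.2% of coding Tpm1 TPM and the inner one 35.1% and 25.8%. The most distal last exon, chr9:67022590-67023441, closed 83.4% and 90.8%. A longer last exon, chr9:67022593-67024565, closed 6.50% and 4.88% and runs over nearly all of the distal one, so reads there fit both. Another, chr9:67027892-67028167, closed 9.32% and 3.78%. The last exon of the proximal type, chr9:67028848-67029742, closed 0.750% and 0.513%.

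Exon 6 was the Tpm1 choice whose share moved by over 10 percentage points between the libraries, the first and last exons above moving by less. Exon 6a had 34.8% of the pair in replicate 1 and 20.2% in replicate 2 (27.5 ± 10.3%, n = 2). The split followed the promoter: among high molecular weight models exon 6a held 52.7% and 27.2%, among low molecular weight models 1.75% and 0%. Nearly all low molecular weight Tpm1 (132 of 134 TPM in replicate 1 and 103 of 103 in replicate 2) therefore had exon 6b. An estimate at 0 in such a table can be a failed assignment, so it is given as listed.

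Named by transcript, the pair Tpm1-215 (exons 2a and 6b, 284 residues) and Tpm1-214 (exons 2a and 6a, 284 residues) exchanged rank. Tpm1-215 had 108 TPM in replicate 1, with a credibility interval of 101 to 115, and 207 TPM in replicate 2, with an interval of 198 to 214. Tpm1-214 had 129 TPM (119 to 134) and 79.8 TPM (71.2 to 86.1). Neither pair of intervals overlapped, but such intervals lie within a library and leave out variation between libraries. The 2 models also differ in where their untranslated ends stop. All models with exon 2a together had the 237 and 287 TPM above, and Tpm1 as a gene had a log2 ratio of -0.05. The leading low molecular weight form Tpm1-211, of 248 residues, had 75.5 and 71.1 TPM, 19.2% and 17.4% of the gene.

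**Figure D2:**
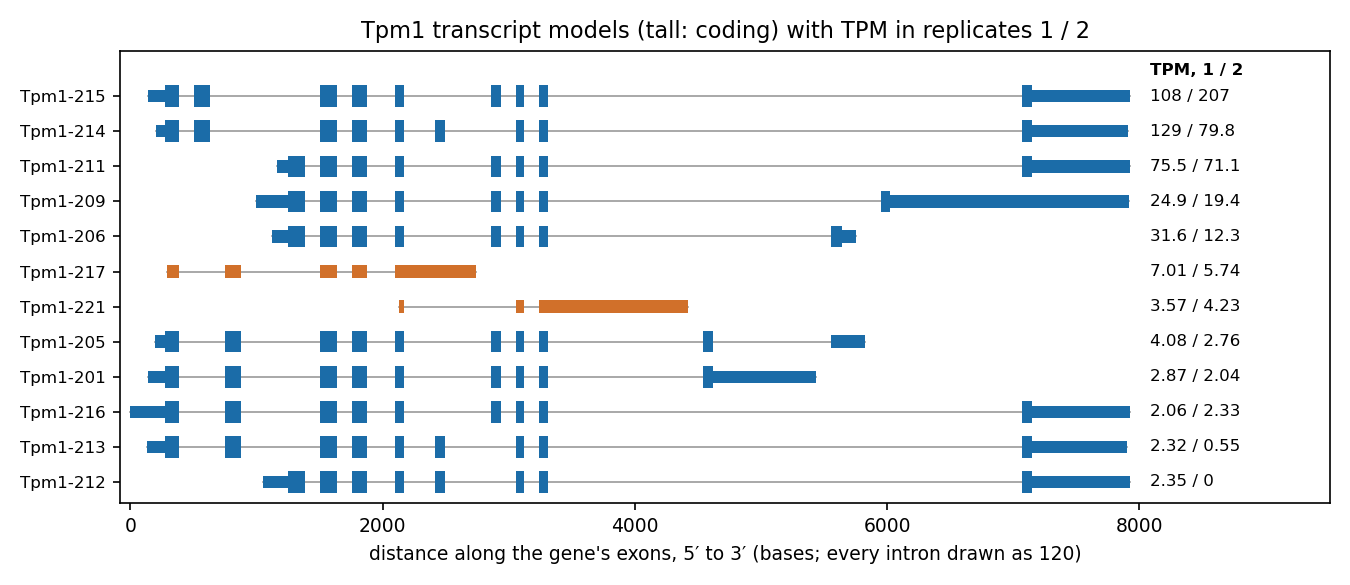
Tpm1 models with a mean of at least 1 TPM, drawn by distance along the exons with every intron shortened to 120 bases, coding models in blue, others in orange and coding parts tall, with the TPM of replicate 1 and replicate 2 at the right. The rows of Tpm1-215 and Tpm1-214 differ at exon 6, and their TPM are 108 and 207 for Tpm1-215 and 129 and 79.8 for Tpm1-214.

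Every Tpm2 coding transcript with TPM above 0 used the upstream exon 6. The upstream exon had 167 TPM in replicate 1 and 205 TPM in replicate 2, and the skeletal model Tpm2-202, with the downstream exon, was listed at 0 in both. The last exon was divided. Tpm2-203, with the distal last exon, had 68.1 TPM (interval 63.0 to 72.7) in replicate 1 and 109 TPM (101 to 114) in replicate 2, 37.7% and 50.6% of the gene. Tpm2-201, with the proximal last exon, had 98.4 and 96.4 TPM, 54.5% and 44.7%. The distal last exon thus closed 40.9% and 53.1% of coding Tpm2 TPM (47.0 ± 8.63%, n = 2), and the leading transcript by TPM differed between the libraries. By expected counts Tpm2-201 led in both, with 69.8% and 61.6% against 23.4% and 34.0% for Tpm2-203, and the distal last exon had 30.4% on average. The proximal last exon of Tpm2-201 runs on over the whole distal exon (chr4:43514711-43516003), so reads in the distal exon fit both models.

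Tpm3 and Tpm4, which serve the non-muscle cytoskeleton in most tissues, were read, over their coding models, almost wholly as low molecular weight forms. Models that are not protein-coding held 33.8% and 24.9% of Tpm3 TPM. Tpm3-201, of 248 residues, had 57.0 TPM in replicate 1 and 55.6 TPM in replicate 2, and the high molecular weight Tpm3 models, the kind known in slow skeletal muscle, held the 0.0600 and 0.340 TPM above. The upstream exon 6 of Tpm3 (chr3:90088401-90088476) took 92.8% and 92.9% of its pair. A retained-intron model of 512 bases, Tpm3-215, had 24.6 and 15.5 TPM, 26.6% and 19.3% of the gene's TPM but 5.15% and 3.59% of its counts. Tpm4-201, of 248 residues, made up 100% and 99.7% of Tpm4. Related copies of Tpm3 could divide its reads: Tpm3-rs7 was at 0.170 TPM in each library and Tpm3-rs2 at 0.

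The long form of caldesmon, the form of differentiated smooth muscle, had a very low estimate in these tables, beside high smooth muscle markers. Whether this low value comes from the transcript models or the estimation was not tested, since reads were not used here. Its full-length model Cald1-205, of 768 residues, was listed at 0 TPM in replicate 1 and had 0.160 TPM in replicate 2. Together, the 3 models with 100 bases or more of the long-form stretch had 0.140 and 0.520 TPM, that is 4.26 and 37.0 expected counts of the gene's 2033 and 2303. The exon boundary of the short form (chr6:34745619-34746015) was used in 100% and 99.1% of the TPM of models spanning it.

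Among short forms, Cald1-203, of 530 residues, led with 8.08 TPM in replicate 1 and 10.8 TPM in replicate 2, 44.0% and 54.9%. Cald1-204, of 536 residues, had 2.90 and 2.87 TPM, 15.8% and 14.5%, and the retained-intron model Cald1-209 had 2.04 and 1.91 TPM, 11.1% and 9.64%. The downstream first exon (chr6:34709442-34709697) opened 69.8% and 69.4% of coding Cald1 TPM and the upstream one (chr6:34598500-34598665) 29.4% and 28.5%. The exon of 78 bases was in 19.1% of spanning TPM in replicate 1 and 8.04% in replicate 2 (13.6 ± 7.80%, n = 2). Its main carrier, Cald1-201, had 3.04 TPM (interval 1.73 to 4.18) and 1.24 TPM (0.155 to 2.54), and these intervals overlapped. At the exon with 2 start sites, 6 bases apart, the longer version (chr6:34755634-34755898) had 70.5% and 82.2%.

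Actn1 gave near-even shares of its smooth muscle and non-muscle exons. The smooth muscle exon had 44.4% in replicate 1 and 45.3% in replicate 2 (44.8 ± 0.646%, n = 2), and the non-muscle exon had the remaining 55.6% and 54.7%. In TPM this was 34.4 and 45.0 for Actn1-202, of 887 residues, and 43.1 and 54.3 for Actn1-201, of 892 residues. Both forms were higher in replicate 2, and their ratio moved by 0.913 percentage points. The tables hold Actn1-202 as its coding region of 2664 bases and Actn1-201 with untranslated ends, 3739 bases. Reads in the untranslated ends can be assigned to Actn1-201 alone, whichever form they come from. By expected counts, which are not divided by length, the smooth muscle exon had 35.7% and 36.6%. How far the untranslated ends lower the smooth muscle share was not tested.

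Actn4 and Flna were led by models that do not hold a full coding region, 2 of the 8 genes with more than 1 transcript. Across the tissue 17.2% of 5577 protein-coding genes were. Actn4-206, a processed transcript of 2581 bases from the 3′ part of the gene, had 315 TPM in replicate 1 and 298 TPM in replicate 2. Apart from its first exon, the exons of Actn4-206 lie within those of the coding model Actn4-201, so reads there fit both models. The full-length Actn4-201, of 912 residues, had 204 and 212 TPM, 36.7% and 37.8%. By expected counts they were closer, with 49.4% and 47.0% for Actn4-206 and 49.6% and 51.7% for Actn4-201. The upstream exon 8 of Actn4 (chr7:28911490-28911575) took 99.8% and 99.9% of its pair.

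In Flna, the short processed transcript Flna-215, of 738 bases near the 3′ end, had 305 TPM in replicate 1 and 321 TPM in replicate 2, 34.4% and 34.2%. Apart from its first exon, the exons of Flna-215 lie within those of the coding model Flna-203, so reads there fit both models. The full-length Flna-203, of 2639 residues, had 179.8 and 235 TPM, 20.2% and 25.0% of the gene's TPM and 54.0% and 62.3% of its counts. The exon of 24 bases was in 31.4% and 30.3% of spanning TPM (30.9 ± 0.832%, n = 2). The spanning TPM, 369 and 338, include the short model Flna-208, which has TPM in replicate 1 only, so this small SD depends on that model. An exon of 122 bases that Flna-213 alone holds (chrX:74240205-74240326), and that Flna-208 does not span, had 39.2% and 30.2%. Almost all TPM with the exon of 24 bases also came from Flna-213, annotated for nonsense-mediated decay, with 116 and 102 TPM. The coding part of Flna-213 ends in its exon of 122 bases, upstream of the exon of 24 bases. Flna-201, a coding model of 2647 residues, also holds the exon of 24 bases. A link between the exon of 24 bases and decay was not tested. A retained-intron model of 797 bases, Flna-204, had 101 and 97.5 TPM, 11.3% and 10.4%. The short model Flna-208 was at 73.2 TPM in replicate 1 and listed at 0 in replicate 2, and Flna-205 was listed at 0 in replicate 1 and had 20.9 TPM in replicate 2.

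**Figure D3:**
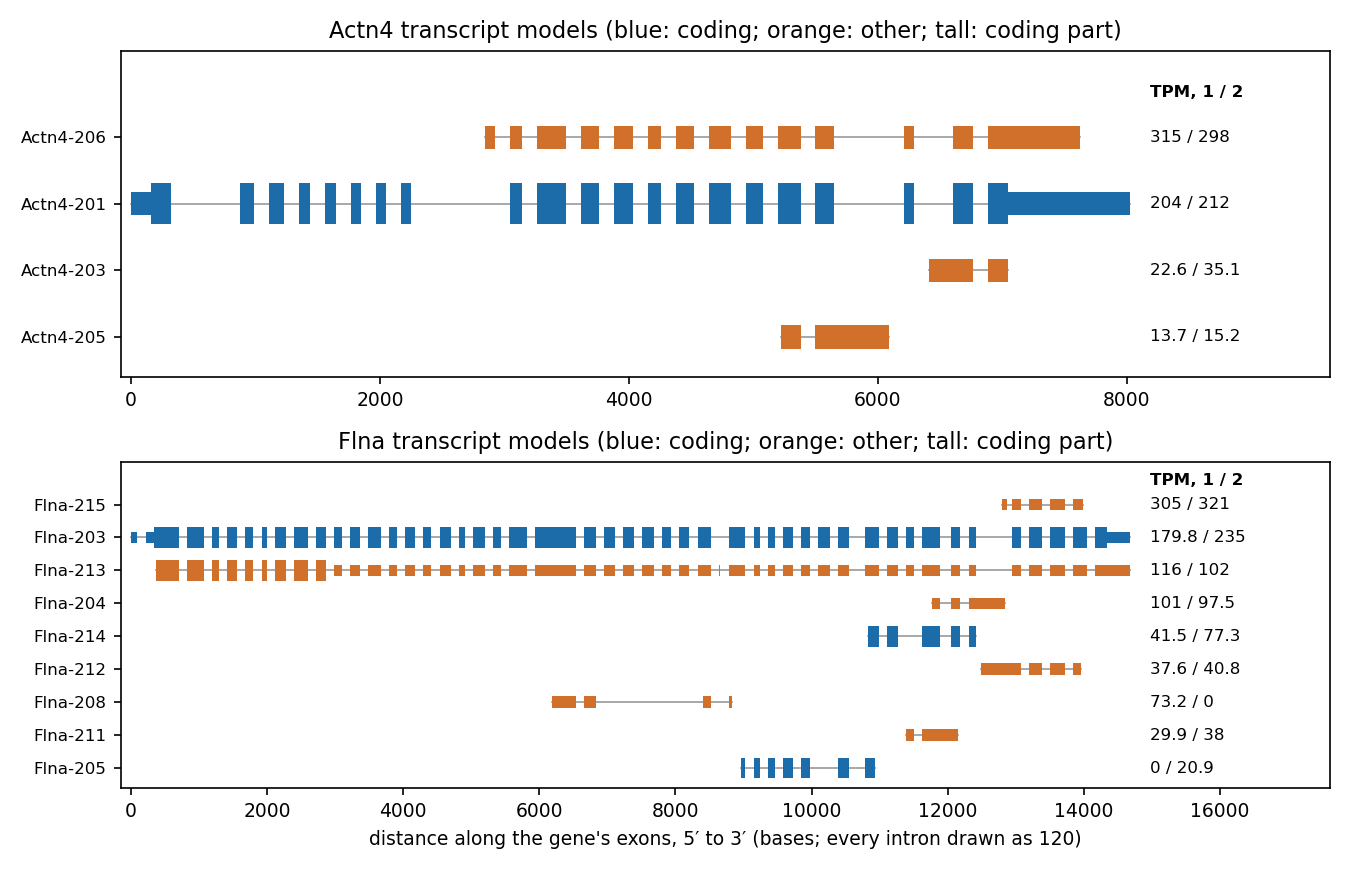
Models of Actn4 with a mean of at least 1 TPM and of Flna with at least 5 TPM, drawn along the exons with every intron shortened to 120 bases, with TPM of replicate 1 and replicate 2 at the right. Actn4-206 covers the 3′ part of Actn4-201 with 315 and 298 TPM, and Flna-215 covers a short stretch near the 3′ end of Flna-203 with 305 and 321 TPM.

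Vcl and Myl6 have 1 transcript each in the tables, so their single models, Vcl-201 and Myl6-201, hold 100% by construction. For Vcl the muscle form metavinculin could not be counted, and the model Vcl-201 encodes vinculin of 1066 residues. For Myl6, 14 models of the later annotation are not in the tables, among them Myl6-206 with a further exon of 45 bases (chr10:128491720-128491764), so the choice at that exon could not be read. The opposite-strand gene Ap3m1, at 11.7 and 17.2 TPM, shares 2235 bases with Vcl, and whether counting used the strand is not given in the sources used here.

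**Figure D4:**
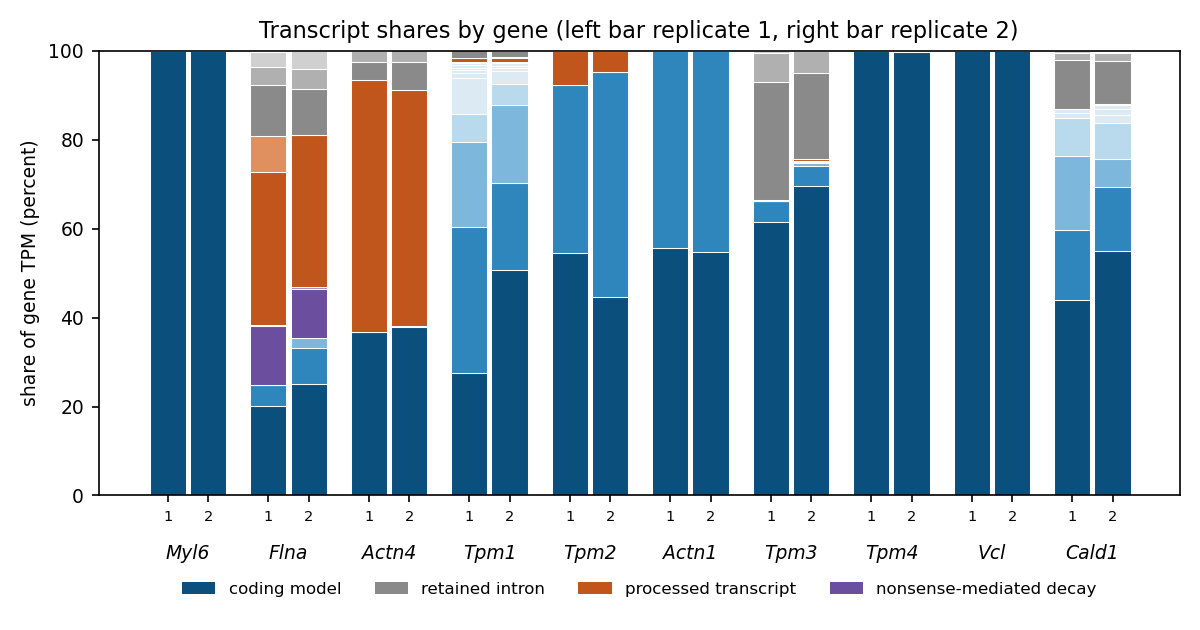
Share of each gene's TPM by transcript, as stacked bars from 0 to 100 percent, replicate 1 left and replicate 2 right, with blues for coding models, greys for retained introns, oranges for processed transcripts and purple for nonsense-mediated decay. Single blue bars mark Vcl and Myl6, and orange leads in Actn4 with 56.6% and 53.0% for Actn4-206.

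The moves between libraries were set beside those of all genes. The leading transcript differed for 2 of 8 (Tpm1 and Tpm2), against 10.7% of the 5677 multi-transcript genes averaging 10 TPM or more. A transcript's share moved by 10 percentage points or more for 5 of 28 (background 18.5%). An alternative coding exon's share moved that far for 11 of 60 (background 9.83%). Of those 11, 2 are the Tpm1 exon 6 pair, 3 lie in Cald1, and 6 are neighbouring Flna exons that change together through Flna-208 alone. These counts are too small and too linked to read as a difference from the background.

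**Figure D5:**
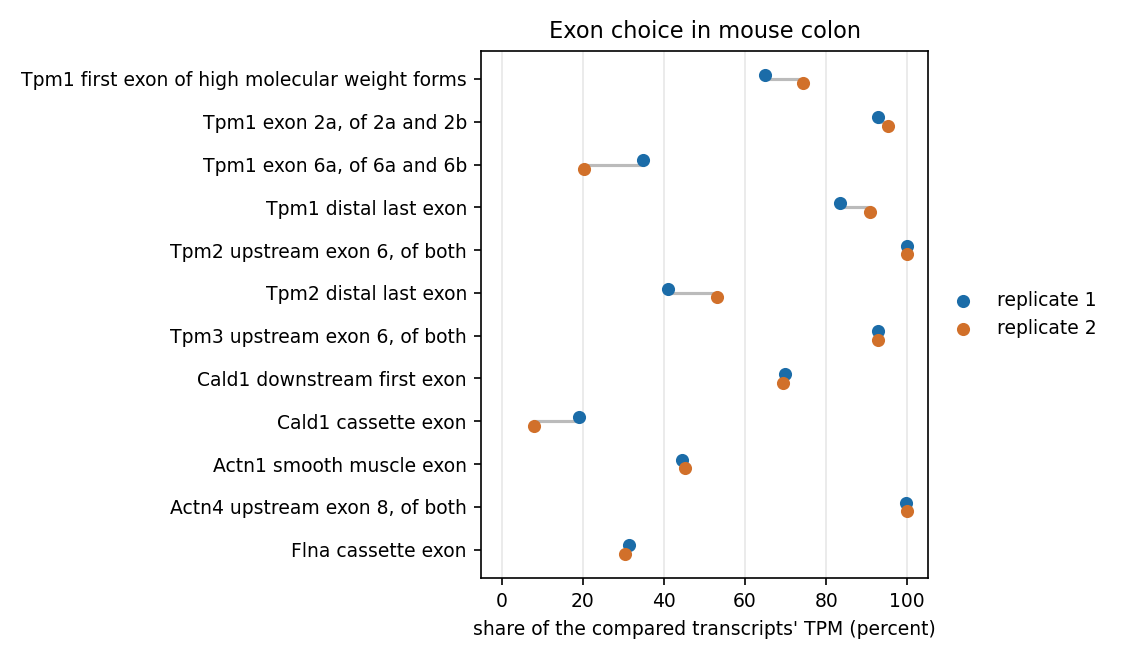
Share of the compared transcripts' TPM taken by each named exon, in percent, with replicate 1 drawn above replicate 2 and a grey line between them. The choices furthest apart are Tpm1 exon 6a (34.8% and 20.2%), the Tpm2 distal last exon (40.9% and 53.1%) and the Cald1 exon of 78 bases (19.1% and 8.04%), while the Actn1 smooth muscle exon stands at 44.4% and 45.3%.

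The gene lists around these 10 are given by the same 2-fold rule. In the smooth muscle list, none of 16 genes was past 2-fold, led by the actin Acta2 (1951 and 1856 TPM), the actin-binding Tagln (1655 and 1611 TPM) and the enteric actin Actg2 (1507 and 1551 TPM), with a median log2 ratio of 0.06. In the non-muscle list none of 19 was, led by the actins Actb (6682 and 6026 TPM) and Actg1 (1187 and 1568 TPM) and by profilin, Pfn1 (2659 and 3000 TPM), with a median of -0.13. In the brush border and junction list none of 11 was, led by the keratin Krt8 (3796 and 3953 TPM), and the median was -0.02. Among sarcomeric relatives 7 of 14 reached a mean of 1 TPM, and Acta1 alone was past 2-fold. Among 16 genes of known splicing regulators, with mean levels down to 1.15 TPM for Rbfox1 and 1.71 TPM for Ptbp2, none was past 2-fold. They were led by Ptbp1 (244 and 283 TPM), a splicing repressor, Rbpms (164 and 142 TPM), which promotes smooth muscle splicing, and Srsf1 (95.8 and 104 TPM).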

How the data were processed

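Per the labels, the libraries were stranded, made from polyadenylated RNA longer than 200 nt and read from both ends at 76 nt. The tables hold expected counts, TPM, FPKM and the percent of a gene's abundance in each transcript, all as deposited by the authors, in columns of the RSEM kind per the file headers. The bounds of TPM credibility intervals, whose level those headers do not state, are used as a deposited score. Per the deposited file notes, the tables rest on mm10 and GENCODE M4. The quantifier version is not given in the sources used here. Junction and contig files, on another build, were not used.

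Symbols, exons and exon sequences came from GENCODE vM21 (mm10) by identifier without version; 88 of 89 transcripts matched, 86 with the same length, and 26 vM21 transcripts are not in the tables. An exon's share is the TPM of models holding it over that of models spanning it, for coding exons with at least 5 TPM spanning and models within 1% of their vM21 length. For paired, first and last exons it is over the models that hold any of the alternatives. Genes averaging 1 TPM or more were called past 2-fold at an absolute log2 ratio of at least 1, with 0.5 added. Transcript shares were counted from 5% in either library. No p-value was computed, since there is 1 group of 2 libraries. Scripts were tested on simulated data. Python 3.11.15, pandas 2.3.3 and numpy 2.4.6 were used, with edgeR 4.0.16 (R 4.3.3) for TMM library sizes in 1 alternative on expected counts rounded to whole numbers. Members, gene lists and tests were chosen with earlier results of these data known. The text names all 10 genes, their transcripts with at least 10% in either library or at a described exon, and the 3 highest genes of each list or those a count needs.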

Additional observations from a re-analysis of the deposited data

How the results depend on the processing

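The sum of the 10 genes' levels, 3411 TPM on average, was 3384 by posterior mean TPM and 2673 by FPKM, which lies on another scale, and 3237 to 3584 with 1 library left out. A leading transcript held over 50% in 6 of 10 genes on average and in 6 to 9 under the alternatives (7 to 9 with 1 library left out). Vcl and Myl6, with 1 model each, are in all of these counts by construction. Actn4 is among the 6 only through a processed transcript. The share of all genes with over 50% in 1 transcript was not counted. Models without a full coding region led 2 genes (2 to 2 with 1 library left out), but 0 by expected counts, which do not divide by length. Internal exons with 10 to 90% inclusion numbered 14, 8 over protein-coding models alone, and 13 to 20 with 1 library left out. Across all genes, 518 were past 2-fold, 215 of those averaging 10 TPM or more and 338 by CPM with TMM library sizes. The leading transcript differed for 609 genes, for 1282 from a mean TPM of 1 and for 100 from a mean TPM of 100. Shares moved by 10 percentage points for 2903 transcripts, 7152 from a mean TPM of 1, 352 from 100, and 652 moved by 20 points. Of values for single genes, transcripts and exons, 38 of 69 moved by over 1 SD by expected counts, 23 of 67 over protein-coding models alone, 10 of 79 by posterior mean TPM and 10 of 10 by FPKM; with 2 libraries, leaving 1 out cannot move a mean by 1 SD. The Flna exon of 24 bases was at 30.9%, but at 0.0646% over protein-coding models alone, which leave out Flna-213. The coding part of Flna-213 ends upstream of that exon. The Tpm2 distal last exon was at 47.0%, but at 30.4% by expected counts, by which the leading Tpm2 transcript was the same in both libraries. Flna-215 held 34.3% of TPM and 5.71% of expected counts. Tpm1 exon 6a, at 27.5%, lay between 26.7% and 27.5% under the other measures. No paired analysis was possible because the 2 libraries form 1 group. Depth limits mainly Cald1, with 2033 and 2303 counts divided over 16 models.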
